A study of Mus musculus with 6 samples.

Results

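The imprinted Dlk1-Dio3 miRNA cluster was examined in kidneys of mice exposed to chronic intermittent hypoxia (CIH) and of control mice. Its members were the mature miRNAs whose number in the mmu-miR name is 1 of 44 numbers known from the domain, with any letter or arm suffix. This rule gave 25 of the 495 mature miRNAs measured, and it used no measured value. Kidney small RNA was sequenced for 3 Control and 3 CIH samples, all from male balb/c mice. In the CIH group, inspired oxygen was lowered to 6% and brought back to 21%, with 60 s for each phase and 30 cycles per hour, for 8 h a day over 8 weeks. The Control group was kept in the chamber with room air. No mutant allele, transgene or other agent is named for either group, and neither the labels nor the study's methods say that the samples came from separate mice, so the p-values measure only the spread between these samples, which may be technical.

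An imprinted domain is a stretch of chromosome in which genes are expressed from only the maternal or only the paternal copy. In the Dlk1-Dio3 domain of mouse chromosome 12, the protein-coding genes Dlk1, Rtl1 and Dio3 are expressed from the paternal copy. The long noncoding RNAs Meg3, Rian and Mirg, together with a long row of miRNA hairpins on the same strand, are expressed from the maternal copy. Dlk1 encodes a membrane protein of the Notch ligand family, Rtl1 a retrotransposon-derived protein needed in the placenta, and Dio3 a deiodinase that inactivates thyroid hormone. The miRNAs are abundant in embryo, placenta and brain and are low in most adult organs. In kidney research, the group led by miR-379 is known from mouse models of diabetic kidney disease. miR-382 is known from human renal epithelial cells treated with TGF-beta, and miR-127 from human proximal tubule cells under low oxygen and reoxygenation.

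On GRCm38, the domain ran over 828 kb, from the start of Dlk1 at position 109452823 of chromosome 12 to the end of Dio3 at position 110281097. Of the 58 miRNA hairpins annotated there, 54 lay on the plus strand, and 19 had at least 1 member measured. All 25 members lay in the domain, 24 of them on the plus strand. The exception was mmu-miR-1247-3p, which lay on the minus strand in an exon of Dio3os, the noncoding RNA that starts beside Dio3. From the Meg3 side, the members fell into 5 stretches. mmu-miR-337-5p lay alone between Meg3 and Rtl1. mmu-miR-127, mmu-miR-434 and mmu-miR-136, with both arms each, lay opposite an exon of Rtl1. mmu-miR-341-3p and mmu-miR-370-3p lay in introns of Rian. The stretch from miR-379 to miR-410 held 15 members, some of them in Mirg and some between Rian and the annotated start of Mirg. mmu-miR-1247-3p closed the row on the Dio3 side. Of the numbers in the rule, 18 had a member. A further 13 miRNA numbers known from the domain but outside the rule had 0 rows used here.

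The sequences below are those on which the results turn: the most abundant members, the pairs of similar neighbors, both arms of miR-434 and miR-136, whose arm shares are compared between libraries, and the member with the smallest p-value. They were taken from RefSeq on GRCm38.p6, which held 24 of the 25 members, and are written 5′ to 3′ with the seed, bases 2 to 8, in capitals. mmu-miR-376c-3p is only named.
mmu-miR-381-3p: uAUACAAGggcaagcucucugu
mmu-miR-300-3p: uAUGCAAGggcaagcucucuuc
mmu-miR-379-5p: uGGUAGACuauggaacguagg
mmu-miR-411-5p: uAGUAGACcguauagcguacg
mmu-miR-127-3p: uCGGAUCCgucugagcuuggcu
mmu-miR-434-5p: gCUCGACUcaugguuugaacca
mmu-miR-434-3p: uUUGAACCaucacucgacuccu
mmu-miR-136-5p: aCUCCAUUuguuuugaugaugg
mmu-miR-136-3p: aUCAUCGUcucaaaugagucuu
mmu-miR-1247-3p: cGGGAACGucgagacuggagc

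The seed is the stretch with which a miRNA pairs to its targets. The 24 members with a sequence had 24 distinct seeds, so no member shared its seed with another. The most similar neighbors were mmu-miR-300-3p and mmu-miR-381-3p, which differed at 3 of 22 positions. Counted from 1 at the 5′ end, with the base of mmu-miR-300-3p first, the differences were G4A in the seed and U21G and C22U at the 3′ end. mmu-miR-379-5p and mmu-miR-411-5p differed at 7 of 21 positions, and G2A was the difference inside the seed. These neighbors lay close together. mmu-miR-379-5p was at chr12:109709065-109709085 and mmu-miR-411-5p at chr12:109710190-109710210. mmu-miR-300-3p was at chr12:109724363-109724384 and mmu-miR-381-3p at chr12:109726870-109726891, all on the plus strand and in no annotated gene other than miRNA genes. Of the 495 measured miRNAs, 413 were matched to a RefSeq sequence, and among these, 1 outside the domain had the full seed of a member. mmu-miR-362-3p, at chrX:7241984-7242005 on the minus strand, shared the seed ACACACC with mmu-miR-329-3p.
mmu-miR-329-3p: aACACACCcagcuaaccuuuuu
mmu-miR-362-3p: aACACACCuguucaaggauuca

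The cluster was scarce in these kidneys. The level was the CPM, a count divided by the library's total after TMM scaling and multiplied to a common total of 1000000, and the miRNAs were ranked by their mean CPM over the 6 libraries. The members ranked from 180 to 486 among the 495 miRNAs. Of the 25 members, 5 averaged at least 10 CPM and 20 averaged less, and 11 had under 100 counts in all 6 libraries together. The lowest count of a member in a library was 3. The 5 members of at least 10 CPM, mmu-miR-381-3p, mmu-miR-127-3p, mmu-miR-434-5p, mmu-miR-411-5p and mmu-miR-379-5p, held 76.2% of the members' CPM. A miRNA read spans a whole short molecule, so levels were not divided by length. Ligation during library preparation differs between sequences, however, and the order of levels between miRNAs carries that limit.

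**Figure D1:**
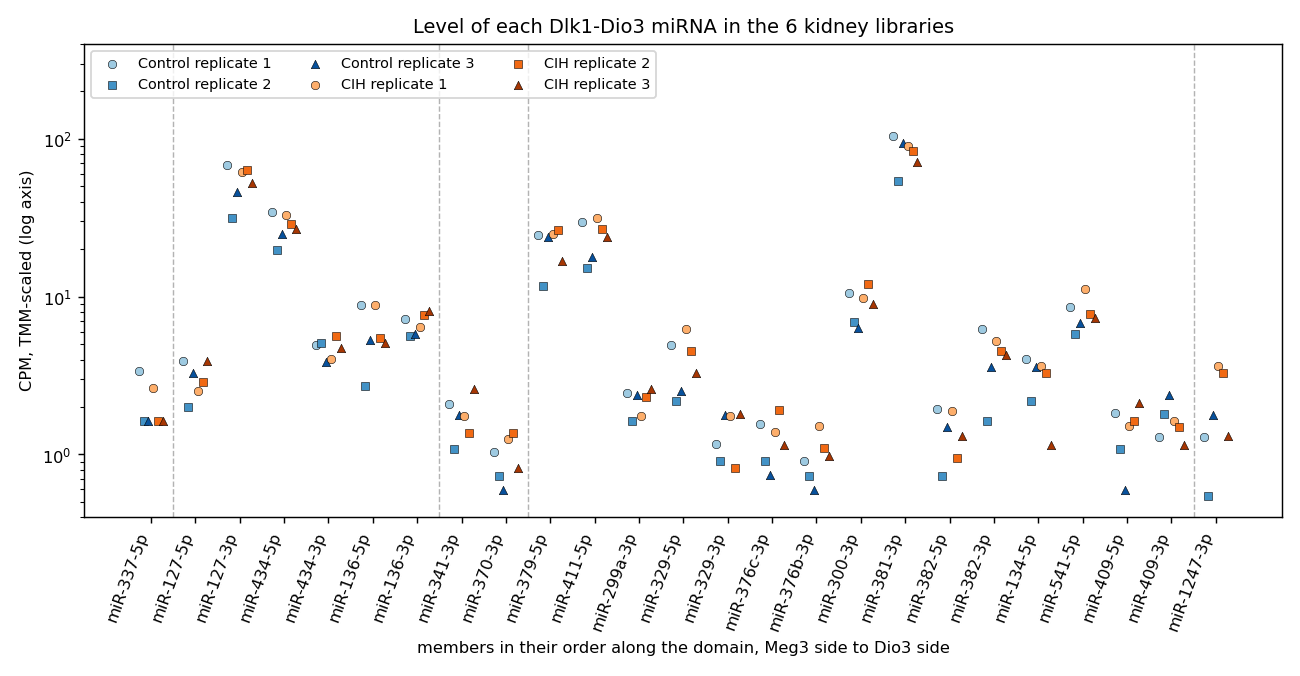
CPM of each of the 25 members (log axis) in the 3 Control libraries (blue) and the 3 CIH libraries (orange), in their order along the domain. Dashed lines part the 5 stretches of the domain. Between mmu-miR-379-5p and mmu-miR-409-3p, the level of mmu-miR-381-3p stands above the others, and most blue squares (Control replicate 2) lie at the bottom of their column.

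The libraries held between 5431797 and 7741499 counts, and Control replicate 2 was the shallowest. The kidney tubule miRNAs used to check the tissue label, 8 of 8 listed numbers, were measured in every library, with summed levels of 285960 to 366050 CPM in Control and 268920 to 305530 CPM in CIH. Over all 495 miRNAs, 39 (7.88%) had an unadjusted p under 0.05 in edgeR's quasi-likelihood test of CIH against Control. No miRNA passed an adjusted p of 0.05 (Benjamini-Hochberg), and the smallest adjusted p was 0.582. The other tests also gave 0 at that adjusted p, and at an unadjusted p under 0.05 they gave 35 miRNAs with edgeR's exact test, 29 with DESeq2 and 38 with limma voom.

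CIH and Control kidneys were compared to ask whether the members of the cluster changed with the exposure. No member passed the adjusted test, and 1 of 25 had an unadjusted p under 0.05, against 7.88% of all miRNAs tested. The same member, mmu-miR-1247-3p, was the only one past the study thresholds of an unadjusted p of at most 0.05 and a fold change of at least 1.5, which 3.84% of all miRNAs passed. Most members had a small positive log2 fold change. The log2 fold change was above 0 in 19 of 25 members, against 48.3% of all miRNAs, and the median was 0.19, against 0.00 over all miRNAs. This count rested on Control replicate 2. Without that library, 12 members were above 0, against 50.7% of all miRNAs, and the median was -0.01. Without Control replicate 1, which had high levels of the cluster, 23 members were above 0, against 45.5% of all miRNAs, and the median was 0.37. In bulk tissue, a difference in the number of cells that express a miRNA and a difference in its level per cell cannot be told apart.

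**Figure D2:**
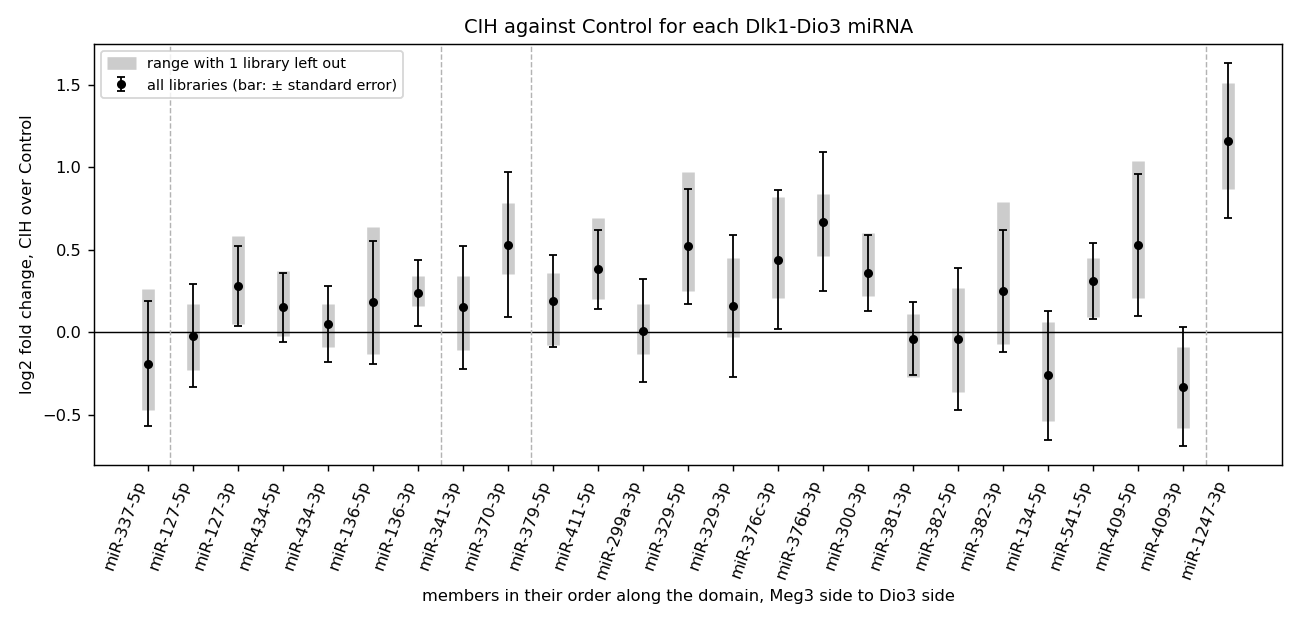
Log2 fold change of CIH over Control for each member, in the order along the domain, with its standard error as the bar. Grey boxes give the range of the value when 1 library at a time is left out, and dashed lines part the 5 stretches. The points run from -0.33 for mmu-miR-409-3p to 1.16 for mmu-miR-1247-3p, and the box of mmu-miR-381-3p spans 0.

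The summed level of the cluster spread more widely within the Control group than between the group means. The summed level of the 25 members was 339, 178 and 264 CPM in Control replicates 1, 2 and 3, and 321, 301 and 256 CPM in CIH replicates 1, 2 and 3. The Control libraries held both the highest and the lowest sum, and the groups overlapped. The means were 260.6 ± 80.4 CPM in Control and 292.8 ± 33.0 CPM in CIH (SD, n = 3 each), with a log2 ratio of 0.17. Before TMM scaling, the members took 337.1 CPM in Control replicate 1 (95% exact interval 324 to 350) and 181 in Control replicate 2 (170 to 193). The intervals cover counting error only, since PCR reads without molecular identifiers are not independent molecules.

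Most plus-strand members shared their lowest library but not their highest. Control replicate 2 was lowest for 14 of 24. Control replicate 1 was highest for 7, and CIH replicates 1, 2 and 3 for 5, 5 and 6. In Control replicate 2, 22 of the 24 plus-strand members lay below their own mean over the 6 libraries, and the median deviation was -0.45 on the log2 scale. In Control replicate 1 it was 0.34, with 3 of 24 below their mean. The medians were -0.16 in Control replicate 3 and 0.27, 0.19 and 0.01 in CIH replicates 1, 2 and 3. Over all 25 members, 15 had their lowest level in Control replicate 2, against 21.8% of all miRNAs, and 7 in Control replicate 3, against 27.3%. None had its highest level in Control replicate 2, against 20.4% of all miRNAs, and 7 had it in Control replicate 1, against 11.1%. Control replicate 2 was also lowest of the 6 in the endothelial marker miRNA, at 49948 CPM against 52882 to 59944 CPM in the others. It was lowest as well for the markers of urothelium and other epithelium, at 1799 CPM against 1822 to 2053 CPM in the others. For the liver marker it was also lowest, at 17.4 CPM against 18.7 to 77.9 CPM in the others. The sums for kidney tubule, leukocytes, erythroid cells, neurons, striated muscle and pancreas were lowest in other libraries. In Control replicate 2, the 5 numbers of smooth muscle and mesenchyme summed to 61403 CPM, inside the CIH range of 60247 to 65257 CPM. The part of depth or of these cell types in these library differences was not tested.

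**Figure D3:**
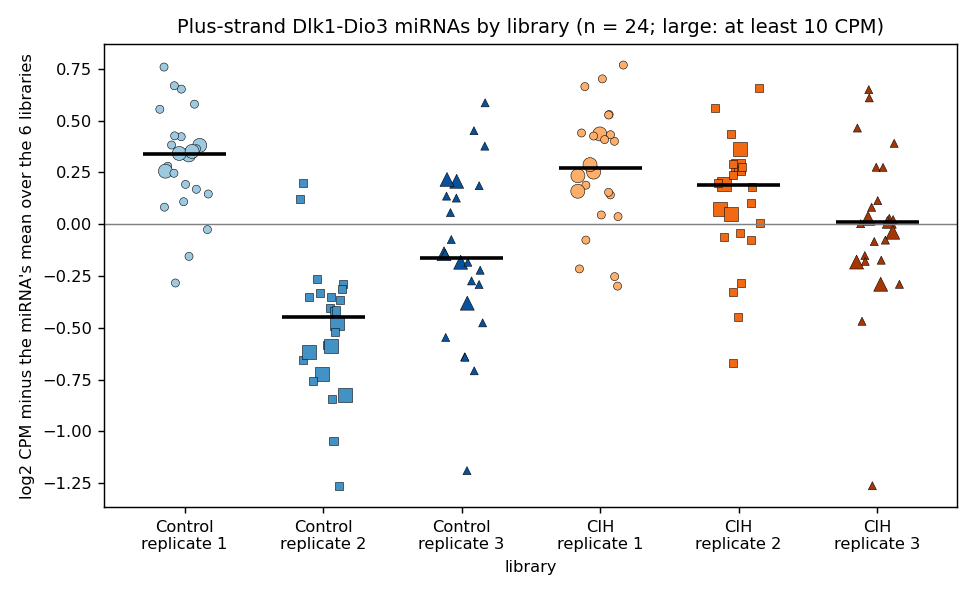
Log2 CPM of each of the 24 plus-strand members minus that member's mean over the 6 libraries, by library, with the median as a black bar. Large symbols are the members of at least 10 CPM. The median is -0.45 in Control replicate 2 and 0.34 in Control replicate 1, while the CIH libraries lie between 0.01 and 0.27.

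To describe how far the members varied together, each plus-strand member was divided by the summed CPM of the other plus-strand members. The SD of log2 CPM over the 6 libraries became smaller by this division in 19 of 24 plus-strand members (79.2%), and in 39 of 469 other miRNAs (8.32%). The median SD went from 0.454 to 0.352 in the plus-strand members and from 0.221 to 0.414 in the other miRNAs. Division by a sum that varies more than the miRNA itself tends to raise its SD. The 8.32% is therefore no like background for the members. It became smaller in 5 of 5 members of at least 10 CPM, where the median SD went from 0.408 to 0.199. For mmu-miR-434-5p it went from 0.293 to 0.091, and for mmu-miR-127-3p from 0.408 to 0.142. The division did not reduce the SD of mmu-miR-434-3p, mmu-miR-136-3p, mmu-miR-299a-3p, mmu-miR-329-3p and mmu-miR-409-3p. For mmu-miR-434-3p it rose from 0.207 to 0.424. These values describe 6 libraries, and the members share their libraries and their depth.

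The 6 members opposite Rtl1 held 37.1% of the members' CPM. miR-127 is made from the strand opposite Rtl1 and directs cleavage of its transcript in mouse. mmu-miR-127-3p, at chr12:109592888-109592909, had 68.2, 31.8 and 46.1 CPM in the Control libraries and 61.6, 63.6 and 52.9 CPM in the CIH libraries. The Control libraries were both above and below the CIH libraries, so the groups overlapped. The fitted log2 fold change was 0.28 ± 0.24 (SE, adjusted p = 0.814 from the edgeR fit). It was 0.05 without Control replicate 2 and 0.58 without Control replicate 1. Its partner arm mmu-miR-127-5p was far lower, with 3.90, 2.00 and 3.26 CPM in the Control libraries and 2.51, 2.87 and 3.92 CPM in the CIH libraries, and a log2 fold change of -0.02 ± 0.31 (SE). Its groups overlapped as well.

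mmu-miR-434-5p, which also lies opposite the Rtl1 exon, had 34.7, 19.8 and 24.9 CPM in the Control libraries and 32.8, 28.9 and 26.8 CPM in the CIH libraries. The CIH libraries lay within the Control range. Between the groups, its log2 fold change was 0.15 ± 0.21 (SE, adjusted p = 0.919 from edgeR). mmu-miR-434-3p had 4.94, 5.08 and 3.86 CPM in the Control libraries and 4.02, 5.60 and 4.74 CPM in the CIH libraries, with a log2 fold change of 0.05 ± 0.23 (SE). Unlike its partner arm, it was not low in Control replicate 2.

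The miR-136 hairpin gave its arms in similar amounts. mmu-miR-136-5p had 8.84, 2.72 and 5.34 CPM in the Control libraries and 8.91, 5.46 and 5.06 CPM in the CIH libraries, and a log2 fold change of 0.18 ± 0.37 (SE). Control replicate 2 was lowest and Control replicate 1 nearly as high as the highest CIH library. mmu-miR-136-3p had 7.28, 5.63 and 5.79 CPM in the Control libraries and 6.40, 7.64 and 8.17 CPM in the CIH libraries, and a log2 fold change of 0.24 ± 0.20 (SE, unadjusted p = 0.272 from edgeR). Its groups overlapped through Control replicate 1. Together the 6 members opposite Rtl1 summed to 128, 67.0 and 89.3 CPM in the Control libraries and 116, 114 and 102 CPM in the CIH libraries. Of the 6, 5 had a positive log2 fold change with a median of 0.16, and 3 had one without Control replicate 2.

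In the stretch from miR-379 to miR-410, the first hairpins gave 2 of the most abundant members. mmu-miR-379-5p, whose hairpin gives the stretch its name, had 24.6, 11.6 and 23.7 CPM in the Control libraries and 25.1, 26.5 and 16.8 CPM in the CIH libraries. Control replicate 2 and CIH replicate 3 were low and the other 4 libraries were alike. The log2 fold change was 0.19 ± 0.28 (SE, adjusted p = 0.919 from edgeR). mmu-miR-411-5p, its neighbor, had 29.6, 15.2 and 18.0 CPM in the Control libraries and 31.6, 26.8 and 23.8 CPM in the CIH libraries. Control replicate 1 lay among the CIH libraries, and the other Control libraries lay below them. Its log2 fold change was 0.38 ± 0.24 (SE, adjusted p = 0.792), and it stayed between 0.20 and 0.69 when 1 library at a time was left out.

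mmu-miR-381-3p was the most abundant member. Its level was 103.8, 54.1 and 94.5 CPM in the Control libraries and 90.9, 84.1 and 71.7 CPM in the CIH libraries. The CIH libraries lay inside the Control range, and Control replicate 2 was lowest. The fitted log2 fold change was -0.04 ± 0.22 (SE, adjusted p = 0.98 from edgeR), and it was -0.27 without Control replicate 2 and 0.11 without Control replicate 1. mmu-miR-300-3p, close to it in sequence and position, had 10.5, 6.90 and 6.38 CPM in the Control libraries and 9.79, 12.01 and 8.98 CPM in the CIH libraries. Its groups overlapped through Control replicate 1. Between the groups, its log2 fold change was 0.36 ± 0.23 (SE, adjusted p = 0.792 from edgeR). The count ratio of mmu-miR-381-3p to mmu-miR-300-3p was 9.86, 7.84 and 14.8 in Control and 9.28, 7.0 and 7.98 in CIH, and it overlapped between the groups.

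Within the cluster, the leading members kept 1 order in every library, with mmu-miR-381-3p first, mmu-miR-127-3p next and mmu-miR-434-5p after it. mmu-miR-381-3p took between 27.9% and 35.8% of the members' counts and mmu-miR-127-3p between 17.5% and 21.1%. The share of mmu-miR-381-3p was 30.6% (95% exact interval 28.8 to 32.4), 30.3% (27.5 to 33.3) and 35.8% (33.6 to 38.1) in Control. It was 28.3% (26.6 to 30.1), 27.9% (26.0 to 29.8) and 28.0% (25.8 to 30.3) in CIH. The groups did not overlap, with the Control shares above the CIH shares, but the intervals of Control replicate 1 and 2 met those of the CIH libraries. Counts divided by the members' sum were lower in all CIH than in all Control libraries for 2 of 25 members, mmu-miR-381-3p and mmu-miR-134-5p, against 4.85% of all miRNAs. They were higher in all CIH libraries for 1 member, mmu-miR-411-5p, against 0.404% of all miRNAs, with this member among them. These percentages divide miRNAs outside the cluster by a sum they are no part of, which averaged higher in CIH. They are therefore no like background for shares within the cluster, and the counts of members are no result about the cluster. The members' shares also sum to a fixed total, so a lower share of 1 member raises those of the others. With 3 libraries against 3, the smallest two-sided exact permutation p is 0.1, and these shares were picked with their values known. The level order of the next members was less firm. mmu-miR-411-5p had more counts than mmu-miR-379-5p in 5 libraries and fewer in Control replicate 3, with ratios of 1.21, 1.31 and 0.756 in Control and 1.26, 1.01 and 1.42 in CIH.

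Further along, mmu-miR-541-5p lay in an intron of Mirg at chr12:109742422-109742446. Its level was 8.58, 5.81 and 6.83 CPM in the Control libraries and 11.2, 7.78 and 7.35 CPM in the CIH libraries. CIH replicate 1 was highest and the other libraries overlapped. The log2 fold change was 0.31 ± 0.23 (SE, unadjusted p = 0.219 from edgeR). mmu-miR-382-3p and mmu-miR-382-5p, from another Mirg intron, had log2 fold changes of 0.25 ± 0.37 and -0.04 ± 0.43 (SE). mmu-miR-382-3p had 6.24, 1.63 and 3.56 CPM in the Control libraries and 5.27, 4.50 and 4.25 CPM in the CIH libraries, so that the Control libraries lay on both sides of CIH. mmu-miR-382-5p had 1.95, 0.726 and 1.48 CPM in the Control libraries and 1.88, 0.956 and 1.31 CPM in the CIH libraries, and the CIH libraries lay inside the Control range.

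miR-329 belongs to the miRNAs of the domain that neuronal activity induces in rat neurons. mmu-miR-329-5p was read 38, 12 and 17 times in Control and 50, 33 and 20 times in CIH, or 4.94, 2.18 and 2.52 CPM and 6.27, 4.50 and 3.27 CPM. Control replicate 1 lay among the CIH libraries and the other Control libraries below them. Its log2 fold change was 0.52 ± 0.35 (SE, adjusted p = 0.8 from edgeR). mmu-miR-329-3p had 1.17, 0.907 and 1.78 CPM in the Control libraries and 1.76, 0.819 and 1.80 CPM in the CIH libraries, with a log2 fold change of 0.16 ± 0.43 (SE), and its groups overlapped. mmu-miR-362-3p, which shares its seed, was far more abundant. Its level was 83.4, 81.9 and 65.7 CPM in the Control libraries and 62.6, 73.9 and 68.3 CPM in the CIH libraries, with a log2 fold change of -0.17 ± 0.14 (SE).

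mmu-miR-376b-3p, which represses autophagy genes in human cells, was the only member whose groups did not overlap. It was read 7, 4 and 4 times in Control and 12, 8 and 6 times in CIH, or 0.910, 0.726 and 0.594 CPM and 1.51, 1.09 and 0.98 CPM. All CIH libraries lay above all Control libraries, as in 5.25% of all miRNAs. The fitted log2 fold change was 0.67 ± 0.42 (SE, adjusted p = 0.792 from edgeR). Counting error alone gave a larger standard error of 0.47, so the value from the fit is too small here. No member was lower in all CIH libraries than in all Control libraries, which held for 7.27% of all miRNAs.

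The arms of miR-409 had log2 fold changes of opposite sign. mmu-miR-409-5p had 1.82, 1.09 and 0.594 CPM in the Control libraries and 1.51, 1.64 and 2.12 CPM in the CIH libraries, with a log2 fold change of 0.53 ± 0.43 (SE). mmu-miR-409-3p had 1.30, 1.81 and 2.37 CPM in the Control libraries and 1.63, 1.502 and 1.14 CPM in the CIH libraries, with a log2 fold change of -0.33 ± 0.36 (SE). In both arms the groups overlapped. Over the stretch, 11 of 15 members had a positive log2 fold change, with a median of 0.25, and 7 had one without Control replicate 2. The 6 members not given by library, mmu-miR-337-5p, mmu-miR-341-3p, mmu-miR-370-3p, mmu-miR-299a-3p, mmu-miR-376c-3p and mmu-miR-134-5p, had log2 fold changes between -0.26 and 0.53. mmu-miR-134-5p, known for restraining dendritic spine growth in rat neurons, had the lowest of these. For the miRNA numbers with roles described in kidney, miR-127, miR-379 and miR-382, 0 of 5 members had an unadjusted p under 0.05, which 7.88% of all miRNAs had, so that this count is no result about these members. Their log2 fold changes ran from -0.04 to 0.28.

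The member with the smallest p-value lay apart from the others. mmu-miR-1247-3p, at chr12:110278058-110278078 on the minus strand, was read 10, 3 and 12 times in Control and 29, 24 and 8 times in CIH. In CPM, this was 1.30, 0.544 and 1.78 in Control and 3.64, 3.28 and 1.31 in CIH. CIH replicates 1 and 2 lay above all Control libraries, and CIH replicate 3 lay inside the Control range. The means were 1.21 ± 0.623 CPM in Control and 2.74 ± 1.26 CPM in CIH (SD, n = 3 each). Between the groups, its log2 fold change was 1.16 ± 0.47 (SE), a fold of 2.24, with an unadjusted p of 0.0318 and an adjusted p of 0.582 from edgeR. Leaving out Control replicate 1, Control replicate 2, CIH replicate 1 or CIH replicate 2 raised the unadjusted p to 0.0643, 0.0907, 0.11 and 0.0951, with log2 fold changes of 1.17, 0.87, 0.91 and 1.04. Leaving out Control replicate 3 or CIH replicate 3 lowered the unadjusted edgeR p to 0.0184 and 0.00544, with log2 fold changes of 1.51 and 1.46. In Control replicate 1, where the plus-strand members were high, mmu-miR-1247-3p had nearly the same level as in CIH replicate 3, from 10 and 8 counts. Like most plus-strand members, it was lowest in Control replicate 2. Division by the summed CPM of the plus-strand members lowered its SD of log2 CPM from 1.008 to 0.784.

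Both arms were measured for 6 hairpins, and the share of the 3p arm in the counts of both arms was compared between the groups. mmu-miR-127 gave almost only its 3p arm, with 94.6%, 94.1% and 93.4% in Control and 96.1%, 95.7% and 93.1% in CIH. The 6 libraries lay close together, over 186 to 555 counts each, and the groups overlapped. mmu-miR-434 gave mostly its 5p arm. The 3p share was 12.5%, 20.4% and 13.4% in Control and 10.9%, 16.2% and 15.0% in CIH, and Control replicate 2 was highest. For mmu-miR-136 the 3p share was 45.2%, 67.4% and 52.0% in Control and 41.8%, 58.3% and 61.7% in CIH. The 95% exact intervals included equal shares of both arms in Control replicates 1 and 3 and in CIH replicates 1 and 2, so that no leading arm could be told there. In Control replicate 2 the 3p share was highest of the 6 libraries for mmu-miR-434 and mmu-miR-136, with 95% exact intervals of 14.0% to 28.2% and 52.0% to 80.5%. For mmu-miR-434, the intervals of all 6 libraries met each other.

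The scarce hairpins had wide intervals. mmu-miR-382 had a 3p share of 72.0 ± 3.69% (SD, n = 3) in Control and 77.6 ± 4.51% (SD, n = 3) in CIH. mmu-miR-329 had 30.0 ± 11.1% in Control and 24.2 ± 10.3% in CIH (SD, n = 3 each). For mmu-miR-409, the share was 41.7%, 62.5% and 80.0% in Control and 52.0%, 47.8% and 35.0% in CIH, from 16 to 25 counts in each library. The groups overlapped in all 6 hairpins.

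**Figure D4:**
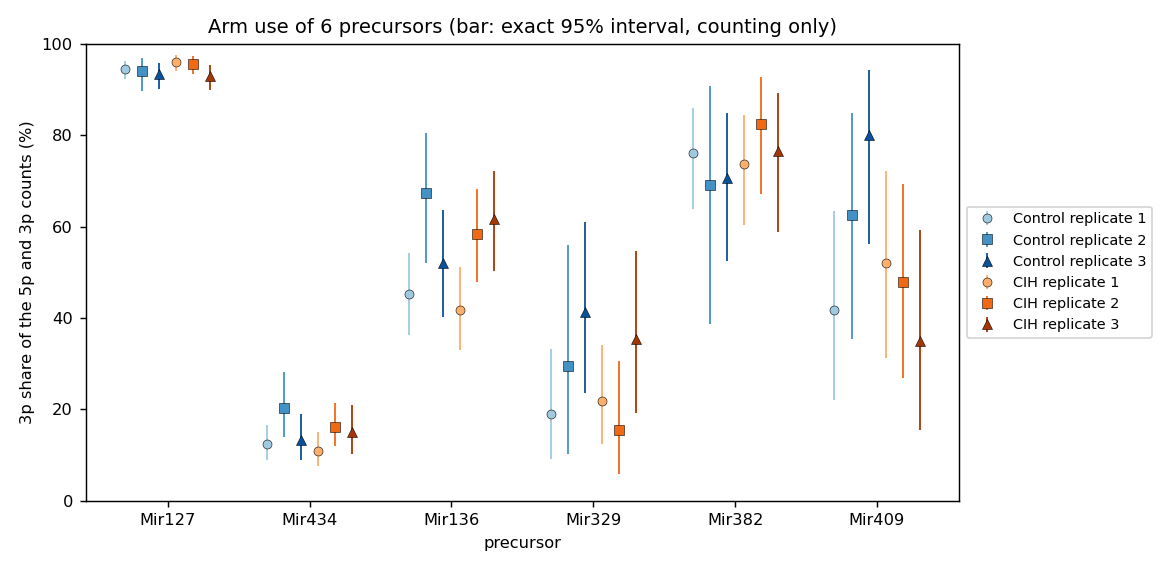
Share of the 3p arm in the counts of both arms (%), for the 6 hairpins with both arms measured, in each Control (blue) and CIH (orange) library. Bars are 95% exact binomial intervals and cover counting error only. mmu-miR-127 lies between 93.1% and 96.1% in all libraries, while mmu-miR-409 runs from 35.0% to 80.0%.

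Of the markers of other cell types, those of neurons, where the cluster is known to be abundant, summed to 5124 to 5782 CPM in Control and 4340 to 5016 CPM in CIH, over 6 of 9 listed numbers, with miR-124, miR-137 and miR-153 not analysed here. This sum, led by mmu-miR-218-5p, was lower in all CIH than in all Control libraries, but 4 of its 9 mature miRNAs had a positive log2 fold change and 1 had an unadjusted p under 0.05 in edgeR. The pancreas markers, led by mmu-miR-375-3p, summed to 68.8 to 72.9 CPM in Control and 74.9 to 98.3 CPM in CIH, over 2 of 4 listed numbers. This sum was higher in all CIH libraries, with a log2 ratio of 0.24, and both miRNAs had a positive log2 fold change. Of the 2, 1 had an unadjusted p under 0.05 in edgeR, and 1 was at 0 in at least 1 library. The summed levels of the cluster members overlapped between the groups. Leukocyte miRNAs summed to 935 to 1091 CPM in Control and 983 to 1104 CPM in CIH, and miR-122 of liver to 17.4 to 48.1 CPM and 19.6 to 77.9 CPM. The sums for erythroid cells, for urothelium and other epithelium and for striated muscle also overlapped between the groups. The part of these cell types in the members' levels was not tested.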

How the data were processed

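Kidney small RNA was sequenced in 3 Control and 3 CIH samples, grouped by the titles in the labels. The authors deposited raw read counts per miRNA entry. The submitters' processing notes name cutadapt and Bowtie, while for their versions, the miRBase release and the build the sources used here give nothing. The table held 584 entries for 495 mature miRNAs. For 44 miRNAs with more than 1 entry the one with the highest total was kept, which touched no member. Counts were tested in edgeR 4.0.16 (quasi-likelihood, TMM, condition as the only term, R 4.3.3) over all miRNAs counted in 3 or more libraries, which left out none. The biological coefficient of variation was 15.7%. The SE of a log2 fold change was derived as its absolute value divided by the square root of the quasi-likelihood F statistic. Alternatives used DESeq2 1.42.0, limma 3.58.1, other scalings, filters and entry treatments, a replicate block and each library left out. Exact intervals used scipy 1.17.1. Scripts were tested on simulated data. Positions came from GENCODE and RefSeq on GRCm38.

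The members, lists and tests were chosen with earlier results of these data known. Members given by library are the 6 of smallest p, the 8 of highest level, those past a threshold and both arms of hairpins with both listed. All others named with values were chosen after these were seen.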

Additional observations from a re-analysis of the deposited data

How the results depend on the processing

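Library totals of 5431797 to 7741499 counts limit the scarce members, whose counting standard errors reach 0.47 on the log2 scale. No alternative gave an adjusted p under 0.05 for any miRNA. The 19 miRNAs past the study thresholds became 2 with a mean of at least 10 CPM required, 10 with DESeq2, 29 with every entry as deposited, and 11 to 20 with 1 library left out. At a mean of at least 10 CPM, 5 members were tested, of which 4 had a positive log2 fold change, 0 an unadjusted p under 0.05 and 0 passed the study thresholds. Of the 302 miRNAs tested there, 24 had an unadjusted p under 0.05 in edgeR, so 0 of 5 is no result about the members. That filter leaves out mmu-miR-1247-3p. With 1 library left out, 0 to 4 members had an unadjusted p under 0.05, 0 to 3 passed the study thresholds, 12 to 23 had a positive log2 fold change, the median ran from -0.01 to 0.37, and the log2 ratio of the summed CPM from -0.04 to 0.37. The lowest of these 5 values came without Control replicate 2, and for the first pair also without CIH replicate 1 or 2. The highest came without Control replicate 1, where mmu-miR-127-3p, mmu-miR-411-5p, mmu-miR-329-5p and mmu-miR-300-3p had an unadjusted p under 0.05 and no adjusted p under 0.561. There, 5.25% of all miRNAs had an unadjusted p under 0.05 and 3.23% passed the study thresholds, against 4 and 3 of the 25 members. The cause was not tested.

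Without a scaling factor, 22 members had a positive log2 fold change and the median was 0.25. Without mmu-miR-1247-3p, an alternative chosen after seeing the data, 18 did and the median was 0.18. With the replicate number as a block, 22 did, the median was 0.24, and 21 miRNAs and 1 member passed the study thresholds. Libraries with the same number had correlations of -0.051, -0.012 and 0.044, and 1 of 6 libraries correlated best with its own number. The labels do not state that the numbers pair the samples, and with 3 libraries in each group these correlations cannot decide it. Of 327 fold changes of the members given by library under alternatives, 320 kept their call, 4 lost it, 3 gained it and 26 had the other sign, 18 of them with a library left out. The call was whether the study thresholds were passed. In the main fit only mmu-miR-1247-3p passed them, so most kept calls were of members passing in neither fit. The number of kept calls is therefore no measure of stability.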

Other observations

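miR-335, made from an intron of the imprinted gene Mest on another chromosome, was the only listed number of 5 from other imprinted loci with rows used here. mmu-miR-335-5p had 69.9, 58.4 and 74.6 CPM in the Control libraries and 57.9, 68.5 and 52.8 CPM in the CIH libraries. Its groups overlapped, and the log2 fold change was -0.18 ± 0.15 (SE, unadjusted p = 0.268 from edgeR). mmu-miR-335-3p had 54.8, 56.6 and 46.1 CPM in the Control libraries and 42.9, 67.7 and 53.1 CPM in the CIH libraries, with a log2 fold change of 0.05 ± 0.18 (SE). In neither arm was Control replicate 2 the lowest library, unlike in 15 of the 25 members of the Dlk1-Dio3 cluster. Over all miRNAs, 21.8% were lowest in that library, so this is no result about miR-335.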
